A study of Homo sapiens with 6 samples.

Results

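Ribosome biogenesis and nucleolar factors were followed in RNA-seq of NT2 (NTera-2) cells, a line labelled as embryonal carcinoma. The set holds 37 genes, chosen by name for their place in ribosomal RNA (rRNA) synthesis and processing, with AATF included, out of 58051 Ensembl genes in the deposited table. All 37 were found by symbol, and all 37 passed the filter on low values. Cells that received mimics of the piRNA piR-36249 gave 3 libraries, and cells given a scramble control gave the other 3. piRNAs are short RNAs of the germ line that guide PIWI proteins. By the genotype field the mimic samples carry a knockdown of piR-36249, whereas their titles and treatment name mimics. The titles were used, and every difference below is mimic minus scramble. All samples are 1 cell line, and the labels do not state that the libraries of a group are separate cultures. The p-values therefore rest on a spread that may be technical.

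Libraries held 48.0 to 62.7 M reads, as recovered from the FPKM values. Levels are given in FPKM, reads scaled to gene length and library depth, as the authors computed it. Of 10 genes that mark embryonal carcinoma and pluripotent cells, 8 had a mean under 0.5 FPKM and 5 of them, NANOG, SOX2, TDGF1, L1TD1 and SALL4, were listed at 0 in every library, so the labelled cell type was not borne out by its defining markers. The summed level of the 10 genes, nearly all of it PODXL, was 312.8 to 354 FPKM in mimic and 250.1 to 295 FPKM in scramble libraries. Of 10 endothelial genes 7 were above 1 FPKM in all libraries, and their summed level was 686 to 748 FPKM in mimic and 574 to 616 FPKM in scramble libraries. The part of these marker differences in the results below was not tested. In bulk RNA, fewer cells of a type and less RNA per cell cannot be told apart.

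Ribosomes are made in the nucleolus. RNA polymerase I transcribes a long precursor rRNA there, small nucleolar ribonucleoproteins (snoRNPs) guide its methylation and pseudouridylation, and large assemblies cut it and fold it into the small (40S) and large (60S) ribosomal subunits. The genes of this pathway are known to be transcribed together in growing cells, and many are known targets of MYC, which binds the E-box sequence CACGTG.

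That E-box was searched for in the promoters of the set. The genes were not chosen by sequence, but the pathway is known for MYC targets. The share of promoters with an E-box therefore describes the genes and not their response to mimic. RefSeq promoters (GRCh38.p14, 250 bases before to 50 bases after the annotated start) were matched for 30 of the 37 genes; there was no match for TCOF1, NOP58, NOL10, RRP12, BOP1, RRS1 and NOLC1. CACGTG reads the same on either strand. It was found in 11 of the 30 promoters (36.7%), in 26 of 103 promoters of further ribosome biogenesis genes (25.2%) and in 8.88% of 15843 protein-coding promoters. The median GC content, which bears on how often such letters occur, was 64.7% in the 30 promoters, 61.0% in the 103 and 62.7% in the protein-coding ones. Among the 30, the E-box was in 8 of 17 promoters of genes called lower and in 3 of 13 of the others. No test was made of this split, and the same split over all genes was not read. The promoters below are those of AATF, RRP9, UTP14A and FBL, which were called lower, and of UTP20, which was not. They are printed 5′ to 3′ along the gene, with the E-box in capitals.
AATF: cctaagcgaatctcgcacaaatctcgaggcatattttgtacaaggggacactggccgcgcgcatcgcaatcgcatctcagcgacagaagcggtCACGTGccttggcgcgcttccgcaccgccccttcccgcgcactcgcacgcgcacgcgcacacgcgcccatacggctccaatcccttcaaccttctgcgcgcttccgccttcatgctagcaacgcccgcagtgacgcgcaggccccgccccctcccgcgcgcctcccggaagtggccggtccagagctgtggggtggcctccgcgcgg
RRP9: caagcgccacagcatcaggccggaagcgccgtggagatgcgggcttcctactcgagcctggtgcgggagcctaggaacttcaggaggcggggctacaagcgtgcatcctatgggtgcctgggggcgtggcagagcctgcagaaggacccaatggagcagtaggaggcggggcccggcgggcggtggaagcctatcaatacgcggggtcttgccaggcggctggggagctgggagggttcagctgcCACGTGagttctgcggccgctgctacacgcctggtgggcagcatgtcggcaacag
UTP14A: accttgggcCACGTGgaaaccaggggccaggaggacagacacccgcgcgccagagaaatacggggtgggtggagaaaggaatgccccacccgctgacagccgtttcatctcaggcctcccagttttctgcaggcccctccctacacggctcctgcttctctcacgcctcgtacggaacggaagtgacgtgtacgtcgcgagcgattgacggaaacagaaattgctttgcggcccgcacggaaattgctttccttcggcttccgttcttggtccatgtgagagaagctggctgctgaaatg
FBL: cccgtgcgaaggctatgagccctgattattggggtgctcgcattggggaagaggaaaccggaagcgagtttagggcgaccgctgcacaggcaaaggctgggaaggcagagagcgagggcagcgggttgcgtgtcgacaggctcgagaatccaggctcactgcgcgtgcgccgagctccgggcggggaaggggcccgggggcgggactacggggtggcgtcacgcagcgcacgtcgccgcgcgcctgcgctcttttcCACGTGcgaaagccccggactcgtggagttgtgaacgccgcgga
UTP20: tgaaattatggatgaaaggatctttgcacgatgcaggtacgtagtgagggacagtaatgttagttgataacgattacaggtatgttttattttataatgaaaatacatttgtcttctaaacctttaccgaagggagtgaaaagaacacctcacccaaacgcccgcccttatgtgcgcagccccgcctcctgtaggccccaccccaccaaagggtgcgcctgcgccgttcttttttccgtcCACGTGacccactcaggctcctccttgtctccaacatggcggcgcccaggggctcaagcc
The AATF window is chr17:36948704-36949003 on the plus strand, and its E-box begins 157 bases before the start. The RRP9 window is chr3:51941855-51942154 on the minus strand, with an E-box that begins 5 bases before the start and runs into the transcript. The UTP14A window is chrX:129905914-129906213 on the plus strand, and here the E-box begins 241 bases before the start. The FBL window is chr19:39846330-39846629 on the minus strand, with an E-box that begins at base 7 of the transcript. The UTP20 window is chr12:101279855-101280154 on the plus strand, with an E-box that begins 10 bases before the start. These letters are a description of the windows and show no binding. The ETS core CCGGAAG, on either strand, was in 8 of the 30 promoters (26.7%), in 44 of the 103 (42.7%) and in 14.2% of the protein-coding ones. The other sequences searched, on both strands, were the NRF1 core GCATGCGC (6.67% of the 30, 4.85% of the 103 and 4.26% of protein-coding promoters), the YY1 core AAGATGGC (3.33%, 10.7% and 3.91%) and the TATA box TATAAA (3.33%, 5.83% and 9.63%).

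With mimic, 20 of the 37 genes fell, none rose, and 17 did not pass the test. The test was limma on log2(FPKM + 1) over all 12912 genes that averaged 0.5 FPKM or more, with a Benjamini-Hochberg adjusted p under 0.05 as the call. At an unadjusted p under 0.05 the limma count of higher genes was still 0, and with voom on recovered reads 1 gene, UTP20, was higher. Over all tested genes, 16.8% were lower and 18.7% higher by this rule, against 54.1% and 0% of the set. The members were chosen with earlier results of these data known, so their share describes the set and is no independent test. The genes of the set are well expressed, each with at least 1280 reads in every library. When genes that averaged 5 FPKM or more were tested alone, 24.1% of them were lower, and 23 of the 37. The log2 difference was negative in 35 of the 37, and its median was -0.15, beside 0.00252 over all tested genes. Apart from AATF the changes were small, with log2 differences between -0.46 and 0.21.

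The groups did not overlap in 28 of the 37 genes. In 27 of them (73%) all 3 mimic libraries lay below all 3 scramble libraries, as did 23.2% of all tested genes. UTP20 alone lay above, as did 26% of all tested genes. Counted by library, 29, 30 and 31 of the 37 genes were below the lowest scramble library in mimic replicates 1, 2 and 3. The summed FPKM of the set was 1363, 1356 and 1315 in the mimic libraries, against 1539, 1567 and 1574 in the scramble libraries.

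**Figure D1:**
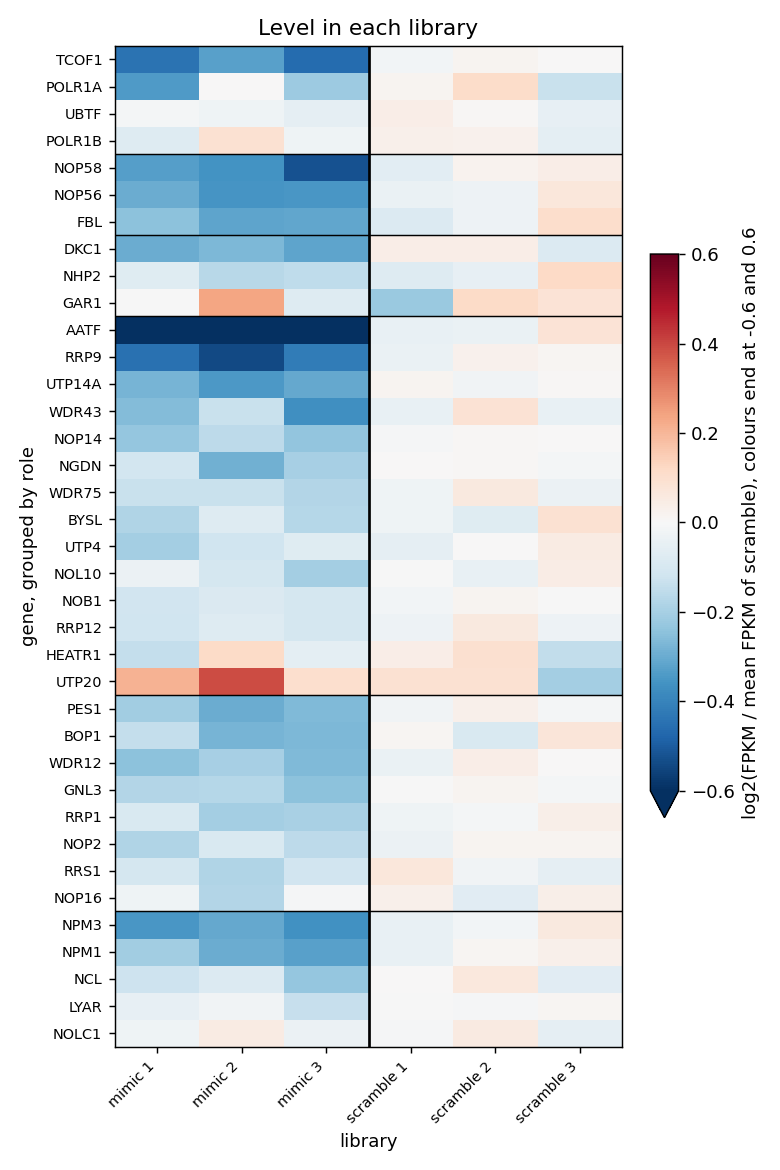
Level of each of the 37 genes (rows, grouped by role and divided by lines) in the 3 mimic and 3 scramble libraries (columns), as the log2 ratio of its FPKM to the mean FPKM of scramble; colours end at -0.6 and 0.6. Blue prevails in the mimic columns, where 27 genes lie below every scramble library, and UTP20 is the gene that lies above.

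The factors that start the pathway, around RNA polymerase I, had 1 gene lower of 4. This and the counts by role below are to be read beside all tested genes, of which 16.8% were lower. Of genes that averaged 5 FPKM or more, tested alone, 24.1% were lower. TCOF1 encodes treacle, a nucleolar scaffold for rRNA transcription that is mutated in Treacher Collins syndrome. It measured 21.5, 23.3 and 21.3 FPKM in mimic libraries, against 28.9, 29.6 and 29.4 FPKM in scramble libraries. The groups were well apart, with a log2 difference of -0.40 (SE 0.044, adjusted p = 0.00051). POLR1A, the largest subunit of the polymerase, measured 14.4, 18.3 and 15.7 FPKM with mimic and 18.5, 19.7 and 16.6 FPKM with scramble. Its groups overlapped through mimic replicate 2 and scramble replicate 3, and its log2 difference of -0.17 (SE 0.091, adjusted p = 0.18) did not pass. Without mimic replicate 2 it was -0.26 and passed (adjusted p = 0.041). POLR1B, the second largest subunit, had a log2 difference of -0.0019 (95% interval -0.12 to 0.12). UBTF, the factor that opens rRNA gene chromatin, had one of -0.03 (-0.12 to 0.06).

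All 3 box C/D snoRNP proteins fell. These proteins carry the guide RNAs of rRNA methylation: FBL (fibrillarin) is the methyltransferase, and NOP56 and NOP58 form its platform. NOP58 measured 21.7, 21.3 and 19.0 FPKM in mimic and 26.2, 27.7 and 28.1 FPKM in scramble libraries. Its log2 difference was -0.39 (SE 0.057, adjusted p = 0.0017). NOP56 measured 51.1, 49.2 and 49.4 FPKM with mimic, against 61.3, 61.6 and 65.9 FPKM with scramble. Its log2 difference was -0.33 (SE 0.042, adjusted p = 0.0009). FBL averaged 84.4 ± 2.23 FPKM with mimic and 103.3 ± 7.02 FPKM with scramble (SD, n = 3 each). In each of the 3 the highest mimic library lay below the lowest scramble library, and the ratios of mean FPKM, mimic over scramble, were 0.757 for NOP58, 0.793 for NOP56 and 0.817 for FBL.

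The box H/ACA snoRNP proteins, which carry the guides of rRNA pseudouridylation, had 1 gene lower of 3. DKC1 (dyskerin), the pseudouridine synthase, measured 26.3, 26.9 and 26.0 FPKM in mimic and 33.2, 33.2 and 30.6 FPKM in scramble libraries. Its groups were apart and it fell, with a log2 difference of -0.28 (SE 0.044, adjusted p = 0.0022). NHP2 measured 57.8, 54.1 and 54.7 FPKM with mimic and 57.6, 58.8 and 66.0 FPKM with scramble. The groups overlapped, and its log2 difference of -0.13 (95% interval -0.26 to 0.01, adjusted p = 0.13) did not pass. GAR1 averaged 14.3 ± 1.67 FPKM with mimic and 13.7 ± 1.71 FPKM with scramble, with an interval of its log2 difference from -0.18 to 0.29. Whether DKC1 and GAR1 differ in their change was not tested. Both strands of the NHP2 locus are in use: 414 exon bases are shared with RMND5B on the other strand, and the sources used here do not say whether counting used strand.

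The small subunit processome, the assembly that folds and cuts the 40S part of the precursor, and later 40S factors had 7 genes lower of 14, and AATF stood far below the rest. AATF (ENSG00000275700, chromosome 17, 36948875 to 37056871, plus strand, GRCh38) encodes a nucleolar protein that is also known as a regulator of transcription and apoptosis. It measured 9.30, 9.95 and 8.99 FPKM in mimic libraries, against 23.2, 23.3 and 25.3 FPKM in scramble libraries. The 3 mimic libraries were close together, and the highest of them was far below the lowest scramble library. The ratio of means was 0.393, a fall of 60.7% (log2 difference -1.26, SE 0.053, adjusted p = 1.0e-05), the eighth largest fall on this scale. Among all tested genes 0.271% passed with a log2 difference of -1 or less, and AATF was the only gene of the set to do so. It was also the only gene of the set, or of the further genes below, in the authors' deposited table, with a log2 fold change of -1.36 there. The smallest change that table lists is 1.0005 on the log2 scale. With 3 libraries a group an exact two-sided permutation test cannot go below 0.1, and for AATF it reached p = 0.1.

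The genes beside AATF on the chromosome were read as well. Within 500000 bases 10 other genes averaged 0.5 FPKM or more. Of these, 9 had a negative log2 difference, and 3 passed the test: DHRS11 (-0.34, adjusted p = 0.0028) and MRM1 (-0.21, adjusted p = 0.024) were lower and SYNRG (0.24, adjusted p = 0.041) was higher. Over all tested genes 16.8% were lower and 18.7% higher, so the calls among these 10 neighbours are near the background share. That remark covers the calls and not the signs, as the median log2 difference over all tested genes was 0.00252. MYO19 (-0.14, adjusted p = 0.054) and TADA2A (-0.12, adjusted p = 0.069) narrowly missed the threshold. Whether the 9 negative differences are linked to the fall of AATF was not tested. The nearest of these neighbours, ACACA, begins 28117 bases after AATF ends. It had 4.73 FPKM with mimic and 5.73 FPKM with scramble on average, a log2 difference of -0.23 (adjusted p = 0.062).

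AATF works with NGDN and NOL10 in a complex of the processome. NGDN averaged 7.70 ± 0.475 FPKM with mimic and 8.82 ± 0.0628 FPKM with scramble, and it fell by 0.18 on the log2 scale (adjusted p = 0.029). That call was lost when mimic replicate 2 or 3 or any scramble library was left out (largest adjusted p = 0.082). NOL10 averaged 7.99 ± 0.467 FPKM with mimic and 8.63 ± 0.27 FPKM with scramble, a log2 difference of -0.10 (95% interval -0.22 to 0.02) that did not pass. Per length, AATF stood at 1.14, 1.37 and 1.17 times the NGDN level in the mimic libraries, against 2.62, 2.63 and 2.89 times in the scramble libraries. Against NOL10 the ratio was 1.10, 1.24 and 1.20 with mimic and 2.69, 2.79 and 2.84 with scramble. The ratio of NGDN to NOL10 was between 0.9003 and 1.03 with mimic and between 0.983 and 1.06 with scramble. Ratios between genes depend on the exon length set for each gene, so they do not give relative numbers of transcripts. Between the groups, both AATF ratios were lower with mimic in every library, whereas the ranges of the NGDN to NOL10 ratio overlapped.

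**Figure D2:**
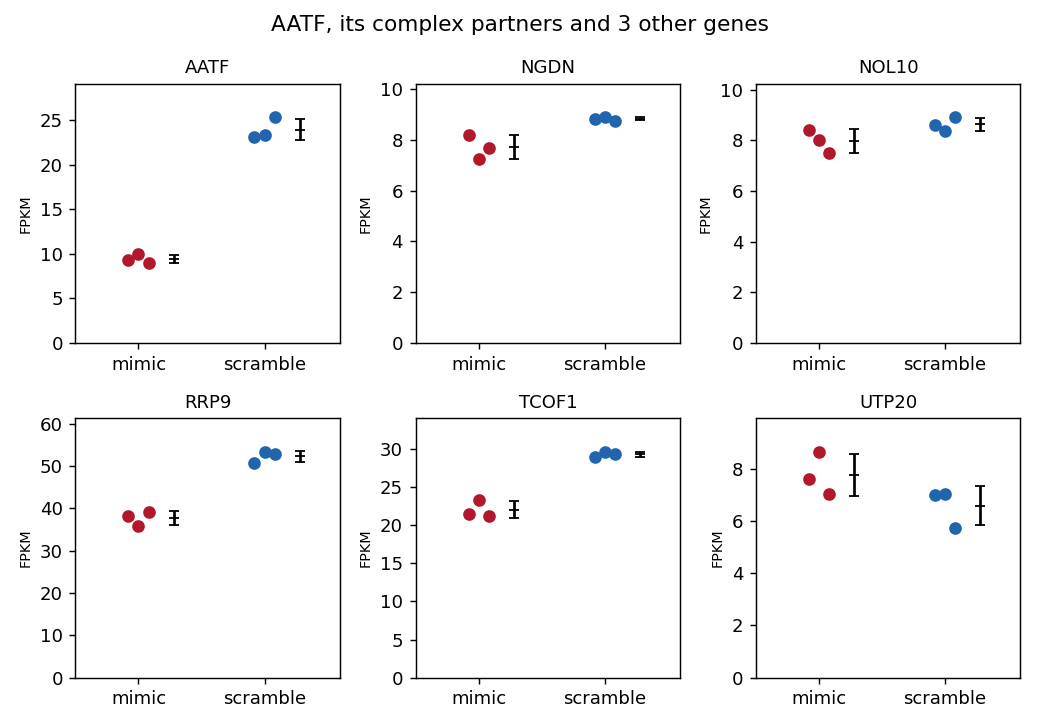
FPKM of AATF, its partners NGDN and NOL10, and RRP9, TCOF1 and UTP20, each point a library and the bar at its right the mean ± SD of the group (n = 3). AATF sits between 8.99 and 9.95 FPKM with mimic and between 23.2 and 25.3 FPKM with scramble, while the other genes differ far less.

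RRP9, a protein of the U3 snoRNP that guides early cleavage, had the next lowest log2 difference of the set. It measured 38.2, 35.8 and 39.1 FPKM in mimic libraries and 50.8, 53.2 and 52.7 FPKM in scramble libraries (log2 difference -0.46, SE 0.044, adjusted p = 0.00025). UTP14A, whose yeast counterpart activates a helicase of the processome, measured 11.9, 11.3 and 11.6 FPKM with mimic and 14.5, 14.2 and 14.5 FPKM with scramble (log2 difference -0.29, SE 0.039, adjusted p = 0.0011). In RRP9 and UTP14A alike the groups did not overlap and each group was tight.

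Several members belong to the transcription-linked subcomplex, whose proteins join the precursor first. Of these, WDR43 fell by 0.24 and WDR75 by 0.14 on the log2 scale. UTP4 (-0.12, adjusted p = 0.076) and HEATR1 (-0.02, 95% interval -0.21 to 0.16) did not pass. Nor did UTP15 (-0.003, adjusted p = 0.97) and NOL11 (-0.10, adjusted p = 0.082), proteins of the same subcomplex among the further genes below. The calls of WDR43 and WDR75 rest on the full set of libraries. WDR43 missed the threshold with mimic replicate 1, mimic replicate 3 or scramble replicate 2 left out (largest adjusted p = 0.07), and WDR75 with any library left out other than scramble replicate 3 (largest 0.12). NOP14, a core processome protein, averaged 16.8 ± 0.521 FPKM with mimic and 19.5 ± 0.069 FPKM with scramble, and fell by 0.20.

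The later 40S factors did not pass. BYSL (bystin), an assembly factor, had a log2 difference of -0.13 and RRP12, which in yeast helps export the subunit, one of -0.09. NOB1, the endonuclease that makes the mature end of the small rRNA, averaged 45.2 ± 0.461 FPKM with mimic and 48.5 ± 0.594 FPKM with scramble. Its groups did not overlap, but the log2 difference of -0.10 missed the threshold (adjusted p = 0.0502) and passed under 4 of 17 alternatives. UTP20, a very large processome scaffold, measured 7.60, 8.63 and 7.05 FPKM with mimic and 7.004, 7.02 and 5.72 FPKM with scramble. Its mimic libraries were all above its scramble libraries by a narrow margin, and its log2 difference of 0.21 (95% interval -0.00055 to 0.42, adjusted p = 0.11) did not pass. It passed, as higher, under 2 of 17 alternatives, voom on recovered reads (adjusted p = 0.044) and the replicate block.

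**Figure D3:**
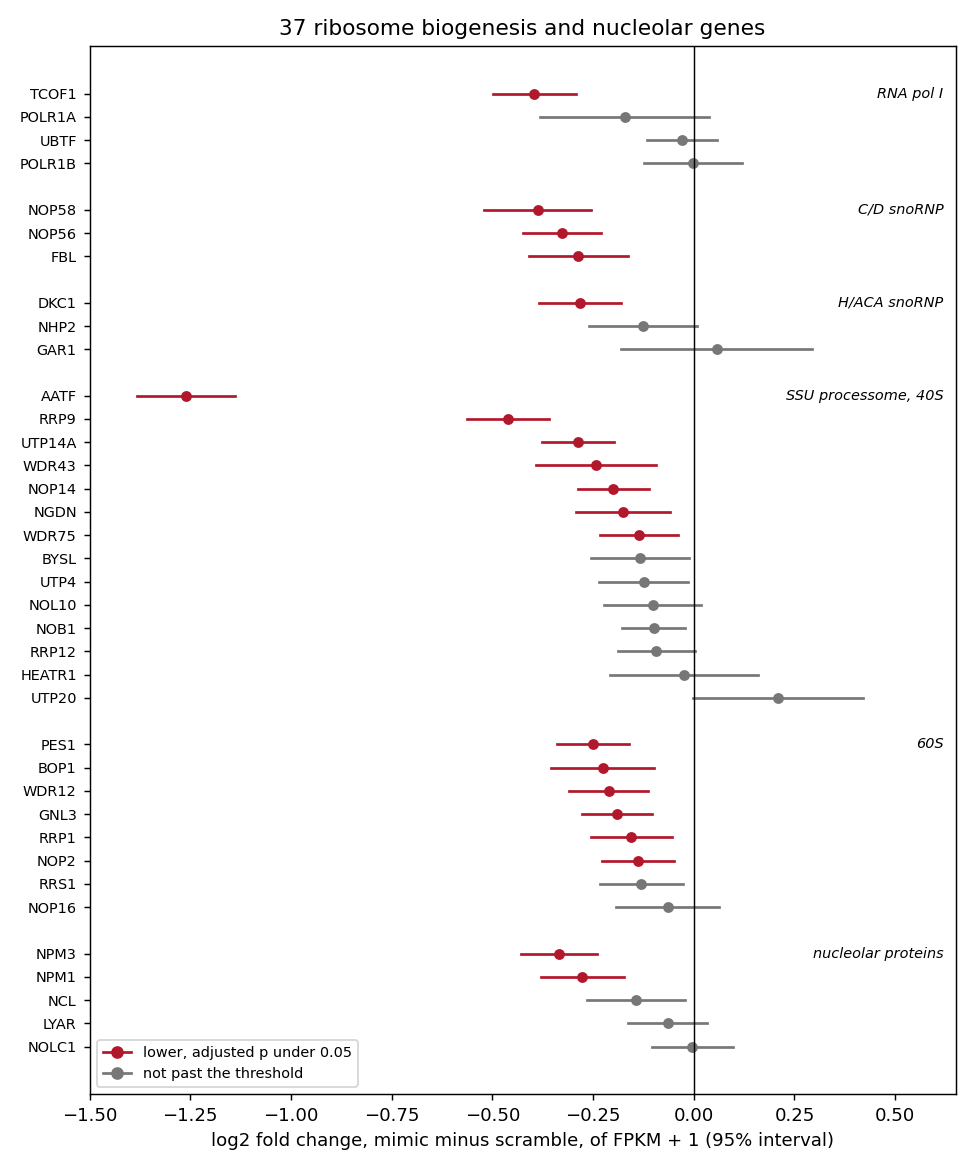
Log2 fold change, mimic minus scramble, of FPKM + 1 for each of the 37 genes by role, with its 95% interval from limma; red marks an adjusted p under 0.05. AATF at -1.26 lies apart, and 35 of the 37 points lie left of 0.

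Of the 60S factors, 6 of 8 fell and the other 2 did not pass. PES1, BOP1 and WDR12 form the PeBoW complex, which is needed to process the 60S part of the precursor, and all 3 fell. PES1 measured 32.4, 30.5 and 31.2 FPKM in mimic libraries, against 37.003, 38.4 and 37.3 FPKM in scramble libraries (log2 difference -0.25, SE 0.039, adjusted p = 0.0021). The ratios of mean FPKM, mimic over scramble, were 0.836 for PES1, 0.853 for BOP1 and 0.849 for WDR12, and no groups overlapped. GNL3 (nucleostemin), a GTPase of proliferating cells, measured 27.3, 27.4 and 26.0 FPKM with mimic and 30.8, 31.2 and 30.6 FPKM with scramble (log2 difference -0.19, SE 0.037, adjusted p = 0.006). These shifts are small but larger than the spread within either group.

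NOP2, an rRNA methyltransferase, fell by 0.14 and RRP1 by 0.15 on the log2 scale. Single libraries decided some of these calls. BOP1 missed the threshold with mimic replicate 3 or with scramble replicate 1 left out (largest adjusted p = 0.061), NOP2 with any library left out other than mimic replicate 2 (largest 0.086) and RRP1 with any other than mimic replicate 1 (largest 0.092). RRS1, which brings the 5S RNP into the 60S subunit, had a log2 difference of -0.13 (adjusted p = 0.054) with groups that did not overlap. It passed under 6 of 17 alternatives, among them without scramble replicate 3 (adjusted p = 0.041). NOP16 overlapped between groups (log2 difference -0.06) and shares up to 344 exon bases with a gene of the other strand. In all, 13 of the 37 genes share exon bases with another gene, small RNA genes aside. In 7 of the 13 (UBTF, NHP2, UTP4, HEATR1, PES1, NOP16 and GNL3) a sharing gene averaged 1 FPKM or more, so their levels are less certain.

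Among abundant nucleolar proteins NPM1 and NPM3 fell and NCL, LYAR and NOLC1 did not pass. NPM1 (nucleophosmin), a histone chaperone and nucleolar scaffold, had the highest level of the set. It measured 172.0, 161.9 and 158.6 FPKM in mimic libraries and 193.0, 200.4 and 203.5 FPKM in scramble libraries (log2 difference -0.28, SE 0.044, adjusted p = 0.0025). NPM3, its smaller relative, measured 65.1, 66.9 and 64.5 FPKM with mimic and 80.3, 81.9 and 86.4 FPKM with scramble (log2 difference -0.33, SE 0.04, adjusted p = 0.00071). In both genes every mimic library was below every scramble library. The annotation holds 45 NPM1 pseudogenes, which summed to 17.7 FPKM with mimic and 22.0 FPKM with scramble on average and can take reads of the gene, so its level is uncertain.

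NCL (nucleolin), next in level, averaged 131.9 ± 6.98 FPKM with mimic and 145.8 ± 6.52 FPKM with scramble. Its groups did not overlap, yet the log2 difference of -0.14 (adjusted p = 0.068) did not pass. It passed under 4 of 17 alternatives, among them without scramble replicate 3 (adjusted p = 0.045). NOLC1, a chaperone of snoRNPs and partner of treacle, averaged 92.6 ± 3.04 FPKM with mimic and 92.8 ± 3.53 FPKM with scramble, with a 95% interval of -0.10 to 0.10 for its log2 difference. LYAR, a nucleolar zinc finger protein, had a log2 difference of -0.07.

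Several members carry snoRNA genes inside their own bounds, on the same strand. In the GENCODE 29 annotation 23 snoRNA genes lie in 6 members: NOP56, NOP58, DKC1, WDR43, GNL3 and NCL. Of these 6 genes 5 were called lower, with a median log2 difference of -0.26. Of the 31 members without one, 15 were called lower, with a median of -0.14. Over all tested genes 16.8% were lower, and the share among all genes with a snoRNA gene inside was not read. Among the 5, WDR43 lost its call under 5 of 17 alternatives. No test was made of this split, and levels of the snoRNAs themselves were not read here.

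The rest of the pathway was read in 117 further genes, listed by role and not by how they moved. This list too was made with earlier results of these data known. All passed the filter, 34 fell, 2 rose and 81 did not pass. Thus 29.1% were lower and 1.71% higher, beside 16.8% and 18.7% of all tested genes. When genes that averaged 5 FPKM or more were tested alone, 33 of 95 further genes were lower and 4 higher. Of all such genes 24.1% were lower. Their median log2 difference was -0.10.

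The lowest median of these groups was that of the snoRNP core and assembly genes, at -0.25, and 5 of those 9 fell. RUVBL1, an ATPase of the R2TP complex that builds snoRNPs, measured 12.6, 12.4 and 12.6 FPKM in mimic libraries and 21.9, 22.3 and 23.2 FPKM in scramble libraries. ZNHIT6, a box C/D assembly factor, measured 5.05, 4.74 and 4.50 FPKM with mimic, against 8.33, 8.82 and 8.11 FPKM with scramble. Both genes kept their groups far apart, with log2 differences of -0.79 (SE 0.038, adjusted p = 1.7e-05) and -0.71 (SE 0.054, adjusted p = 8.9e-05). RUVBL2, the partner ATPase, fell by 0.30, NAF1, an H/ACA assembly factor, by 0.36, and SNU13, the fourth core protein of box C/D snoRNPs, by 0.25. NOP10, the fourth core protein of H/ACA snoRNPs, had a log2 difference of -0.13 (95% interval -0.33 to 0.06). All 4 box C/D core proteins were thus called lower, against 1 of 4 H/ACA core proteins, and the difference between these complexes was not tested.

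Of 12 further RNA polymerase I genes 2 fell, the subunit POLR1E (-0.40) and the initiation factor subunit TAF1D (-0.23), a share of 16.7% that is near the background. TAF1D lost its call without mimic replicate 3 (adjusted p = 0.052). Of 41 further small subunit genes 7 fell (17.1%), again near the background, with PNO1 and IMP4 each at -0.25, and UTP25 rose. UTP25, a processome protein, averaged 7.62 ± 0.145 FPKM with mimic and 5.93 ± 0.569 FPKM with scramble, a log2 difference of 0.32 (adjusted p = 0.0073).

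Of 42 further 60S genes 16 fell (38.1%) and 1 rose. REXO4, an exonuclease-like protein, averaged 18.6 ± 1.21 FPKM with mimic and 27.6 ± 0.633 FPKM with scramble (log2 difference -0.55, adjusted p = 0.00024). RSL24D1, a factor of the pre-60S particle, fell by 0.42 and NOC2L by 0.32. ZNF622, a late 60S factor, averaged 26.7 ± 0.353 FPKM with mimic and 23.4 ± 0.359 FPKM with scramble and rose by 0.18 (adjusted p = 0.0057). Of 13 genes of the RNA exosome, which trims precursor rRNA, 4 fell (30.8%), led by the subunits EXOSC6 (-0.40), EXOSC1 (-0.38) and EXOSC2 (-0.37). Over all tested genes 16.8% were lower, and 24.1% of those that averaged 5 FPKM or more, tested alone.

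**Figure D4:**
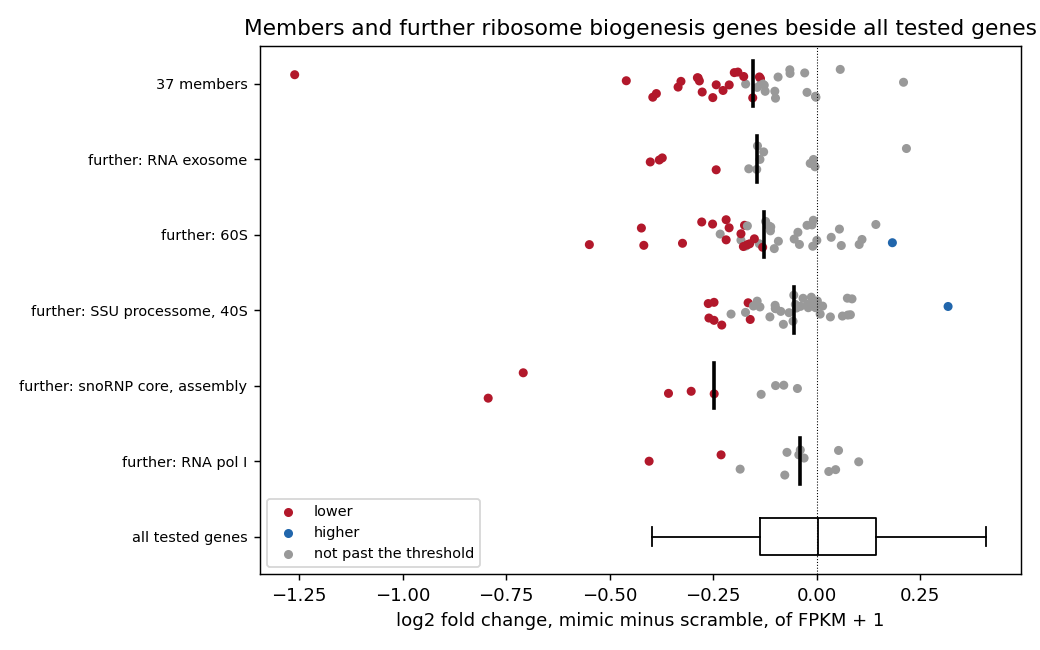
Log2 fold change, mimic minus scramble, of the 37 members and of 117 further ribosome biogenesis genes by role, each point a gene and each bar a median. The box of all 12912 tested genes spans the quartiles with whiskers at 5% and 95%; the median of the members is -0.15 and that of the snoRNP core and assembly genes -0.25, beside 0.00252 for all genes.

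Within the groups, some long members deviated in the same libraries. POLR1A (13519 exon bases), UTP20 (10024) and HEATR1 (9049) were high in mimic replicate 2, by 0.18, 0.14 and 0.13 on the log2 scale above the mean of the mimic group. In scramble replicate 3 they were low, by -0.12, -0.17 and -0.14 against the mean of the scramble group. The other members of over 8000 exon bases deviated less: TCOF1 (11439 exon bases) deviated by 0.08 and 0.0043 in those libraries, WDR12 (9098) by 0.03 and 0.003, and RRP12 (8529) by 0.02 and -0.03. GAR1, a short gene (2046), was also high in mimic replicate 2, by 0.17. The members of up to 2000 exon bases were mixed in those libraries. NHP2 (1510) deviated by -0.04 and 0.12, RRP9 (1578) by -0.07 and 0.01, RRS1 (1706) by -0.05 and -0.05, and NPM3 (928) by 0.03 and 0.06. The direction of POLR1A, UTP20 and HEATR1 was also seen beyond the set, in 1041 protein-coding genes of over 8000 exon bases that averaged 5 FPKM or more. Their median deviation was 0.04 in mimic replicate 2 and -0.06 in scramble replicate 3. In 605 such genes of up to 2000 bases it was -0.07 and 0.08 in those libraries. Between the groups the median differences of long and short genes were 0.02 and -0.03, and that of the 37 members was -0.15. Members of between 2000 and 8000 exon bases belong to neither class. The part of gene length in the member differences was not tested. The count of members called lower was 18 without mimic replicate 2 and 19 without scramble replicate 3.

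**Figure D5:**
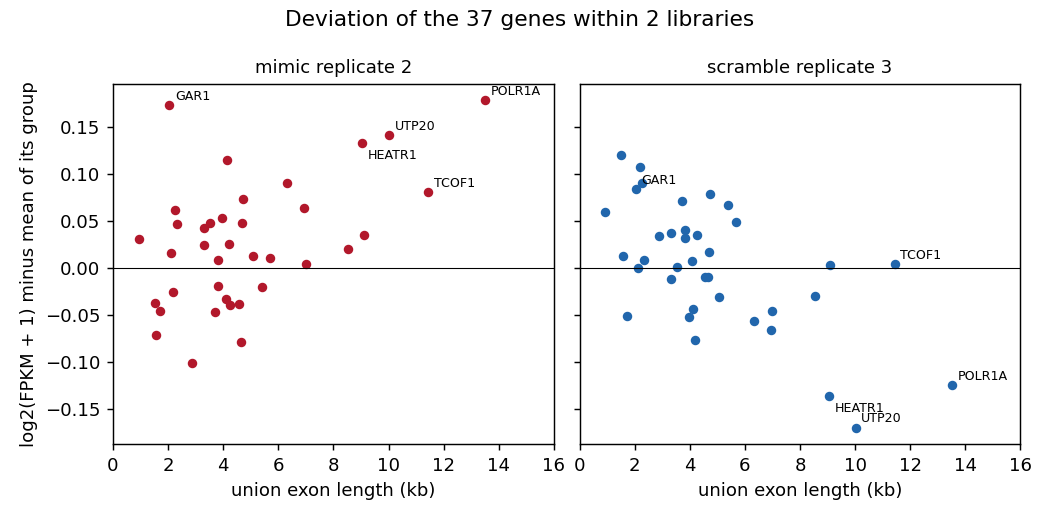
Deviation of each of the 37 genes from its group mean, in log2(FPKM + 1), against union exon length in kb, in mimic replicate 2 and in scramble replicate 3. POLR1A, UTP20 and HEATR1 lie high in mimic replicate 2 and low in scramble replicate 3.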

How the data were processed

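The authors used GRCh38, HISAT2 2.1.0, Trimmomatic 0.39, DESeq2 1.26.0 and featureCounts 2.0.1, per the submitters' processing notes; the sources used here do not give annotation, strand use or FPKM formula. The authors deposited FPKM per gene, with 0 columns of other samples. Their deposited comparison table gives, per the file headers, a signal (mean normalized counts), log2 fold changes, a test score and p-values for 401 genes; in all 401 the log2 fold change has the sign of mimic minus scramble FPKM and the test score the opposite sign. Symbols, positions and union exon lengths came from GENCODE 29, for 57447 of 58051 identifiers. FPKM times length gave whole reads in 95.7% to 95.9% of low values (tolerance 0.02). Tests on log2(FPKM + 1) used limma 3.58.1 (R 4.3.3), with its variance trend and no covariates, at an adjusted p under 0.05; this scale understates changes of low genes. The script was checked on simulated data. The members and lists were chosen with earlier results of these data known. Values in every library are given for AATF and the genes of each role with the smallest p, and UTP20, NGDN, NOL10 and genes near a threshold were chosen after their values were seen. Of further genes, up to 3 a role with the smallest p and those against the role's direction are named, and NOP10, SNU13 and RUVBL2 were added afterwards. Alternatives covered pseudocount, filter, scaling, variance model, voom on recovered reads, replicate block and single libraries left out.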

Additional observations from a re-analysis of the deposited data

How the results depend on the processing

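Over 17 alternatives AATF stayed called, with log2 differences between -1.35 and -1.22, and no member changed direction where it was called. Of the 20 members called lower, 14 kept their call in all 17 and 6 lost it in some (WDR43, WDR75, NGDN, BOP1, NOP2 and RRP1). Members called lower numbered 14 to 19 with 1 library left out and 16 to 23 under the other alternatives, while 0 were higher except 1, UTP20, with voom on recovered reads and with the replicate block. Of the further genes, 23 of 36 called kept their call; 4 were higher, against 2, with a filter of 5 FPKM and with voom. Same-numbered libraries did not deviate together throughout (r = -0.06, 0.24 and 0.05), although the 0.24 of replicates 2 was the highest of all pairs. Mimic replicate 1 correlated best with scramble replicate 3 (r = 0.23), and the numbers are not taken as pairs. Under the block 23 members were lower. Every member had at least 1280 reads in each library, but 3 libraries per group did not settle differences near 0.1 on the log2 scale.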
